A study of Mus musculus with 298 samples.

Results

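Day neurons of the suprachiasmatic nucleus (SCN), the circadian clock of the mouse hypothalamus, were compared by their firing: 78 cells labelled active against 49 cells labelled silent. These 127 cells were chosen by label alone. The rest of the series was 87 active and 70 silent night cells and 14 depolarized cells. Each neuron was recorded in a brain slice for several minutes, and its cytoplasm was then collected for RNA sequencing. The mice lived on a light-dark cycle with 12 h of each, and the day slices were cut near zeitgeber time (ZT) 0, which is lights on. Every cell also had a cFOS label, which split the active cells into 51 cFOS+ and 27 cFOS- cells and the silent cells into 17 cFOS+ and 32 cFOS- cells. The labels give no genotype, strain, drug, age, animal or slice for a cell, nor how the cFOS label was assigned. Several neurons could come from 1 slice, so each group of cells was treated as 1 sample and no difference was tested. The active and silent night cells share no cell with the day groups and are set beside them.

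SCN neurons are small GABA-releasing cells that fire spontaneously, faster by day than by night, and many also release a peptide such as VIP in the ventral core or vasopressin (AVP) in the dorsal shell. Firing lets calcium into the cell, and calcium and cAMP activate the transcription factor CREB. CREB and serum response factor then switch on immediate early genes such as Fos, Egr1 and Arc within minutes, without new protein synthesis. Potassium, calcium and HCN channels set whether such a neuron fires, and GABA-A receptors, which are chloride channels, can inhibit or excite it.

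The levels below are CPM, the reads of a gene summed over the cells of a group, per 1000000 reads of that group. Brackets hold exact 95% intervals, Poisson for CPM and Clopper-Pearson for shares, which cover counting error only and not differences between cells, slices or animals. Ratios are log2 of (CPM + 1) in active over (CPM + 1) in silent cells, and folds are on that scale. Depth was similar, with 3222140 to 14129853 reads per cell and medians of 6333815 in active and 6256623 in silent cells. Detected genes had medians of 4388 and 4738. The summed level of 16 neuron markers was at least 1878 CPM in every cell. The summed level of 16 microglia markers was 0 in some cells of both groups and reached 26175 CPM in an active cell and 39930.5 CPM in a silent cell. It reached 100 CPM in 32 active cells (41.0%, 30.0 to 52.7) and in 25 silent cells (51.0%, 36.3 to 65.6), and in 19 of the 32 silent cFOS- cells. These are called microglia marker cells below. In 9 active cells (11.5%, 5.41 to 20.8) and 4 silent cells (8.16%, 2.27 to 19.6) the microglia sum was above the neuron sum, so their RNA goes against the label of a neuron alone. Fos RNA did not follow the cFOS label: it stood at 2632 CPM in active cFOS+ and 3102 CPM in active cFOS- cells, and at 2014 CPM in silent cFOS+ and 2882 CPM in silent cFOS- cells.

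Across the 11863 genes with at least 5 CPM in one group, active and silent cells were evenly placed: 50.7% were higher in active cells and the median log2 ratio was 0.01. At least a 2-fold excess was found in active cells for 1664 genes (14%) and in silent cells for 1529 genes (12.9%). A gene was higher in the pooled value and within both cFOS labels for 26.3% of genes, and lower in all of these for 23%. The ratios within cFOS+ cells and within cFOS- cells, which share no cell, had the same sign for 50.5% of genes and a Pearson correlation of 0.03 across genes. Splitting the day cells by lower and higher numbers in their names instead gave the same sign for 50.4% of genes and a correlation of 0.03. Genes are not independent replicates, since all ratios come from the same cells. Nearly as many genes had opposite as equal signs in the cFOS labels, so ratios within the labels are given for the genes described most fully. Many genes given singly were chosen partly for keeping the same sign in both labels. For those genes this agreement follows from the choice and is no separate evidence. Of 23 lists with at least 10 measured members, 5 had a median of the same sign in each of 11 alternatives: immediate early genes, voltage-gated potassium channels, GABA receptors and chloride transport, mitochondrially encoded genes and neuron markers.

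Immediate early genes were higher in the active cells. Of 45 listed, 41 were measured, and 33 of these (80.5%) were higher in active cells, beside 50.7% of all measured genes. Their median log2 ratio was 0.39, against 0.01 for all genes, and it was 0.39 within cFOS+ cells and 0.42 within cFOS- cells. The count higher in the pooled value and both labels was 20 of 41, beside 26.3% of all genes, and 1 member, Nrn1, was lower in all of these, beside 23%. With each cell thinned to 3000000 reads, a read was found in a larger share of active than of silent cells for 27 of the 41. The same held for 4424 of the 11863 measured genes. Counted per cell, active cells had at least 5 thinned reads of 5 to 30 listed genes (median 16) and silent cells of 4 to 29 (median 17).

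Promoter sequences are shown for Klf4, which had the largest ratio of the list, for Nr4a1, whose promoter holds 4 copies of the motif marked, and for Fos, which gave the cFOS label its name. They are RefSeq sequences of build GRCm38.p6, on the gene's strand, from 250 bases before to 50 bases after the transcription start. Capitals mark TGACG on either strand, the core of the CRE, the element that CREB binds.
Klf4 (chr4:55532426-55532725, minus strand): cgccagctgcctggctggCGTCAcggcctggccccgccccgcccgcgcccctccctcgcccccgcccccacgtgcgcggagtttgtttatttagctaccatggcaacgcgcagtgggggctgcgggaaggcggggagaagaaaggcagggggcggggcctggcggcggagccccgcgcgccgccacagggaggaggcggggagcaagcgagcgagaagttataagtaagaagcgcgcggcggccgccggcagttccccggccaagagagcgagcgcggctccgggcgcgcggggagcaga
Nr4a1 (chr15:101266596-101266895, plus strand): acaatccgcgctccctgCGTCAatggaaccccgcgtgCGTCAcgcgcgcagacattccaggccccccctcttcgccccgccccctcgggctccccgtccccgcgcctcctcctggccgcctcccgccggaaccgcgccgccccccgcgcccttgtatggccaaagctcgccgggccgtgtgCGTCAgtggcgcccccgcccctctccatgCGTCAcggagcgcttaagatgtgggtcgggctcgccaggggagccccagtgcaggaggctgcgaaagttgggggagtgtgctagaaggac
Fos (chr12:85473640-85473939, plus strand): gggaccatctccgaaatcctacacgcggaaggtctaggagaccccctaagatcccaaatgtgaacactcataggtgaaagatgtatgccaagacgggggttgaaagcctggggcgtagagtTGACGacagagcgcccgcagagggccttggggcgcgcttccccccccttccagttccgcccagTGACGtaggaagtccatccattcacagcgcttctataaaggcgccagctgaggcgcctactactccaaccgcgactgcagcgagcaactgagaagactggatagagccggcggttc

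This core motif was found in the promoters of 23 of the 32 immediate early genes that had a table entry (71.9%), in 36.4% of 8996 measured genes with an entry and in 20.8% of all 32851 promoters. Its palindromic full form, TGACGTCA, which contains the core, was found in 5 of the 32 (15.6%), beside 3.70% of measured genes. Those 5 were Btg2, Dusp1, Maff, Pcsk1 and Plk2. The CArG box, which serum response factor binds, was found in 2 of the 32 (6.25%, beside 1.51%) and the clock E-box CACGTG in 9 (28.1%, beside 11.9%). A gene was counted if any of its promoter entries held the motif, whereas the 20.8% is a share of single entries and not a like measure. A match is only a description of these letters on either strand of this window.

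Among the transcription factors of the list, Klf4, a zinc finger factor (GRCm38 chromosome 4, 55527143 to 55532466, minus strand), ran from 0 to 621 CPM in active cells and from 0 to 44.5 CPM in silent cells, with a median of 0 in both. The high values belonged to a minority of active cells, and the rest of both groups overlapped at 0. Pooled, active cells had 55.7 CPM (55.1 to 56.4) and silent cells 3.26 CPM (3.07 to 3.45), a log2 ratio of 3.74, with 3.83 in cFOS+ and 3.56 in cFOS- cells. A thinned read of Klf4 was found in 29.5% of active (19.7 to 40.9) and 20.4% of silent cells (10.2 to 34.3).

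Jun, a subunit of the AP-1 factor (chromosome 4, 95049034 to 95052222), ran from 0 to 5315 CPM in active cells with a median of 182, and from 0 to 1685 CPM in silent cells with a median of 93.7. The groups overlapped over most of their range, and the pooled levels were 481.2 against 243.8 CPM, a log2 ratio of 0.98 that was 0.13 among lower and 1.77 among higher cell numbers. Egr1, a zinc finger factor and one of the best known activity markers, was at 2285 against 1442 CPM (log2 0.66), with medians of 1091 and 651 CPM over cells and both labels in the same direction. Fos itself (chromosome 12, 85473890 to 85477273) differed little. It ran from 0 to 12736 CPM in active (median 1910) and from 0 to 8006 CPM in silent cells (median 1335), and its pooled levels were 2804 (2800 to 2809) and 2576 CPM (2570 to 2581), a log2 ratio of 0.12. The AP-1 partners Fosb (0.48) and Junb (0.31) and the nuclear receptor Nr4a1 (0.34) were higher in both labels by small log2 ratios.

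Arc, which encodes a synaptic protein that removes AMPA receptors (chromosome 15, 74669083 to 74672570), ran from 0 to 9120 CPM in active and from 0 to 1576 CPM in silent cells. The median was 0 in both, and the difference lay in cells that carried the gene at high level. Pooled levels were 372.5 CPM (370.8 to 374.1) against 71.2 CPM (70.3 to 72.1), a log2 ratio of 2.37 that was 2.82 in cFOS+ and 0.77 in cFOS- cells. Without the highest cell of each group the ratio was 2.49, and at night it was 0.11. The response gene Ier5 had 88.1 against 43.4 CPM (log2 1.01), but 0.19 without cells under 3000 detected genes. The synaptic scaffold gene Homer1 (121 against 49.6 CPM) had a log2 ratio of 2.98 in cFOS- and -0.52 in cFOS+ cells. Gadd45b, a DNA demethylation factor, was at 112 against 36.5 CPM, with 3.41 in cFOS- and 0.14 in cFOS+ cells. The clock gene Per1, which CREB also drives, was at 98.9 against 62.4 CPM (log2 0.66) and higher in both labels.

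**Figure D1:**
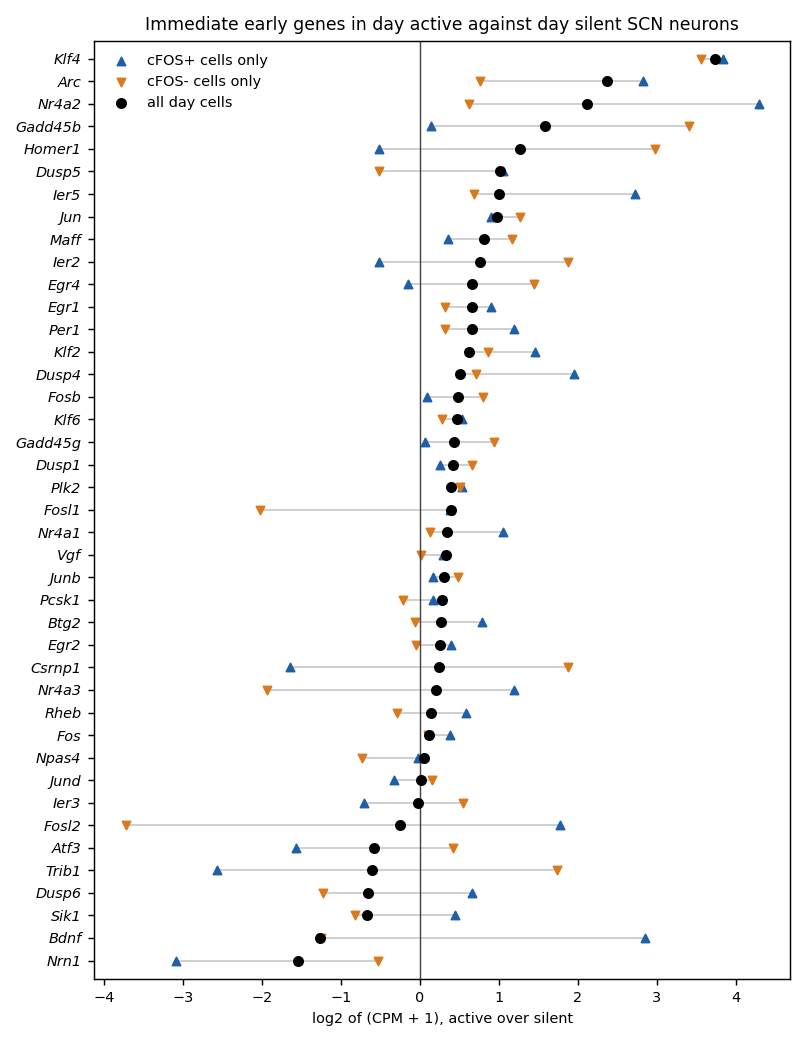
Log2 ratio of active over silent day cells for the 41 measured immediate early genes (x axis), with circles for all cells and triangles for each cFOS label. Of the circles, 33 lie right of 0, from Klf4 at 3.74 down to Jund at 0.02, while the label points scatter widely for genes such as Homer1 and Bdnf.

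The median ratio of the immediate early genes was above 0 in each of 11 alternatives, from 0.14 among lower cell numbers to 0.69 among higher ones, with 25 to 33 of 41 members higher. Without the microglia marker cells it was 0.62. Per1, Vgf and Pcsk1 are also members of other lists; without them and Fos, 29 of 37 were higher with a median of 0.39. At night 27 of the 41 were higher in active cells, with a median of 0.24.

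Of the 24 listed peptide genes, Vip had exact intervals of the share of cells at 100 CPM or more that did not overlap between the groups, and those of the other genes overlapped. These intervals treat cells as independent although several may share a slice, and no share over all measured genes stands beside this count. Vip, the peptide of core neurons (chromosome 10, 5639218 to 5647617), was at 0 CPM at the median of both groups and reached 36050 CPM in active and 17857 CPM in silent cells. At least 100 CPM of Vip was found in 20 of 78 active cells (25.6%, 16.4 to 36.8) and in 2 of 49 silent cells (4.08%, 0.498 to 14.0). The Vip cells were mostly active and mostly cFOS+: 17 of 51 active cFOS+ cells (33.3%, 20.8 to 47.9) and 3 of 27 active cFOS- cells (11.1%, 2.35 to 29.2). Among silent cells they were 1 of 17 cFOS+ cells (5.88%, 0.149 to 28.7) and 1 of 32 cFOS- cells (3.125%, 0.0791 to 16.2). Within each cFOS label the active and silent intervals overlapped. Pooled Vip was 2781 CPM (2776 to 2785) against 271.7 CPM (269.96 to 273.5), a log2 ratio of 3.35 with 2.55 in cFOS+ and 3.68 in cFOS- cells. A single cell held 90.6% of the silent Vip reads, and without the highest cell of each group the ratio was 6.49.

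Sst, which encodes the inhibitory peptide somatostatin (chromosome 16, 23889573 to 23890958), reached 20902 CPM in an active cell and 139 CPM in a silent cell. At least 100 CPM was found in 9 of 78 active cells (11.5%, 5.41 to 20.8) and in 1 of 49 silent cells (2.04%, 0.0517 to 10.9). The pooled levels were 664 CPM (662 to 667) and 2.69 CPM (2.52 to 2.87), a log2 ratio of 7.49 that was 5.77 in cFOS+ and 8.56 in cFOS- cells. One active cell held 44.9% of the reads. Single reads were as frequent in silent cells, with a thinned read in 19.2% of active and 22.4% of silent cells, so the difference was one of cells with high levels.

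Avp, the peptide of shell neurons (chromosome 2, 130580620 to 130582554), was higher in silent cells. It ran from 0 to 41823 CPM in active cells with a median of 0, and from 0 to 50094 CPM in silent cells with a median of 15.97. At least 100 CPM was found in 23 of 78 active cells (29.5%, 19.7 to 40.9) and in 22 of 49 silent cells (44.9%, 30.7 to 59.8), intervals that overlap. Pooled levels were 2247 CPM (2243 to 2251) and 5759 CPM (5751 to 5767), a log2 ratio of -1.36 with -1.15 in cFOS+ and -2.70 in cFOS- cells. Cartpt, the gene of the CART peptides, was likewise lower in active cells at 54.55 against 227.4 CPM (log2 -2.04), with 5 active and 8 silent cells at 100 CPM or more. Nts, which encodes neurotensin, was at 10.7 against 146 CPM (log2 -3.66) on 2 active and 4 silent cells, and its ratio at night was 4.07. Nms and Prok2, peptides tied to SCN output, had near equal shares of cells, 42.3% and 42.9% for Nms and 21.8% and 18.4% for Prok2. Of the 19 measured peptide genes 11 were higher in active cells, with a median of 0.09.

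**Figure D2:**
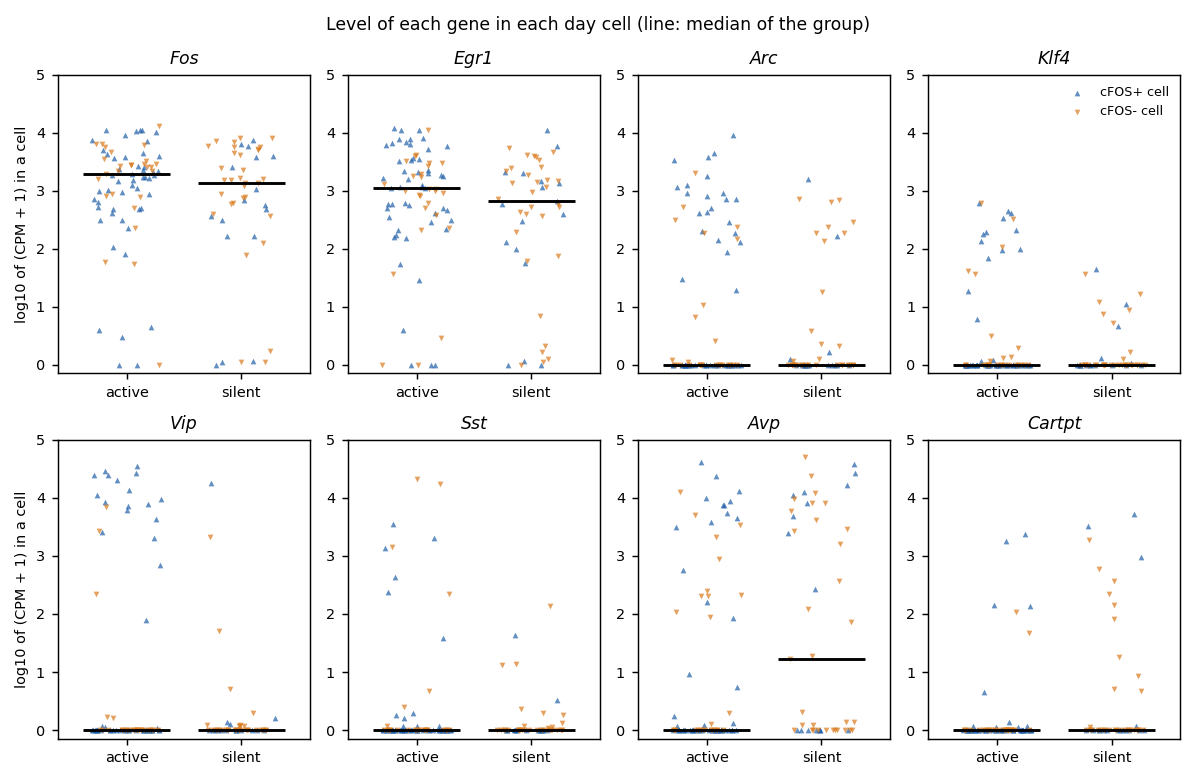
Level in each day cell, as log10 of (CPM + 1), of 4 immediate early genes and 4 peptide genes in active and silent cells, with cFOS+ cells as upward and cFOS- cells as downward triangles and a line at the group median. Fos and Egr1 are spread widely over both groups, with Egr1 medians of 1091 and 651 CPM, whereas high Klf4, Vip and Sst points stand almost all among active cells.

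Vip, Sst and Avp kept their day direction at night in other cells. Cartpt did not, with 8 of 87 active and 5 of 70 silent night cells at 100 CPM or more. The Nts ratio also turned, as given above. Of the 19 measured peptide genes, 10 had the same sign by day and at night (52.6%), beside 50.5% of all measured genes. Vip at 100 CPM or more was found in 19 of 87 active cells (21.8%, 13.7 to 32.0) and 11 of 70 silent cells (15.7%, 8.11 to 26.4), Sst in 10 of 87 (11.5%) and 3 of 70 (4.29%), and Avp in 24 of 87 (27.6%) and 27 of 70 (38.6%). The intervals of each night pair overlapped. The 70 silent cells include a near-identical pair, which was counted as 1 cell in the night ratios of 1.14 for Vip, 0.91 for Sst and -0.48 for Avp.

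**Figure D3:**
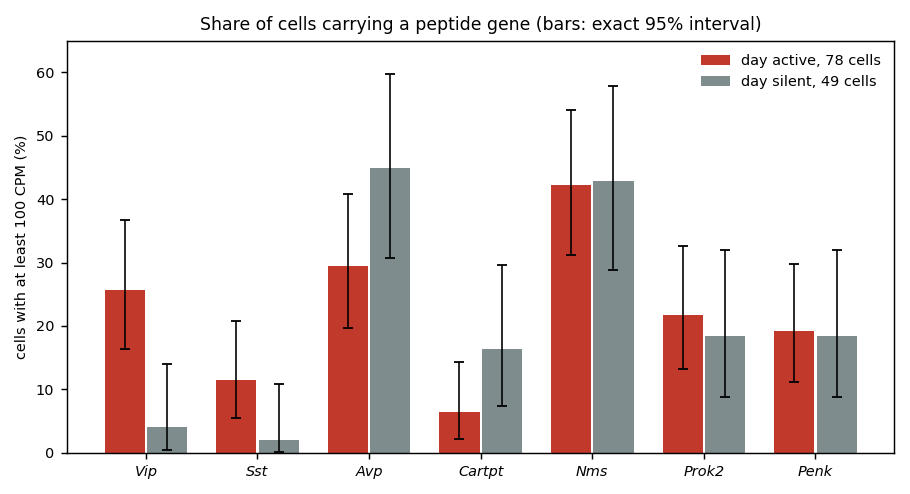
Percent of day active (red) and day silent (grey) cells with at least 100 CPM of 7 peptide genes, with exact 95% intervals as error bars. Vip stands at 25.6% against 4.08% and Avp at 29.5% against 44.9%, while Nms, Prok2 and Penk are close to level.

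Ion channel lists showed no common direction, and single channels went either way. Of measured members, 16 of 30 voltage-gated potassium channel genes were higher in active cells (median log2 0.05), 8 of 19 other potassium channels (-0.25), 8 of 12 sodium channel genes (0.08) and 15 of 29 calcium, calcium release, TRP and HCN channels (0.06). Without the microglia marker cells these medians were 0.49, 0.48, 0.16 and 0.83. The part of those cells in the lists' values was not tested.

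The L-type calcium channel gene Cacna1c (chromosome 6, 118587240 to 119196418) was lower in active cells. It ran from 0 to 268 CPM with a median of 0 in active and from 0 to 687 CPM with a median of 0.98 in silent cells, and the groups overlapped. A thinned read was found in 35.9% of active (25.3 to 47.6) and 55.1% of silent cells (40.2 to 69.3). Pooled levels were 15.03 CPM (14.7 to 15.4) against 57.3 CPM (56.5 to 58.1), a log2 ratio of -1.86, between -1.68 and -2.59 within the labels. Another L-type gene, Cacna1d, was at 76.2 against 47.7 CPM, with ratios of 1.41 in cFOS- and -0.05 in cFOS+ cells. Ryr2, which releases calcium from the endoplasmic reticulum, was at 31.0 against 14.3 CPM (log2 1.07) and higher in both labels, and at night too (1.12). The receptor-gated channel gene Trpc5 was at 4.62 against 23.5 CPM, with a thinned read in 3.85% of active and 14.3% of silent cells.

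Among potassium channels, the pore gene and an accessory gene of the large-conductance calcium-activated (BK) channel were higher in active cells. The pore gene Kcnma1 (chromosome 14, 23289431 to 24014491) was at 72.1 CPM (71.4 to 72.8) against 37.5 CPM (36.9 to 38.2), a log2 ratio of 0.92 with 0.46 and 1.49 within the labels. Cells ran from 0 to 961 CPM and from 0 to 700 CPM with medians of 0, and near equal shares had a read (43.6% and 44.9%). The accessory subunit gene Kcnmb4 was at 17.8 against 3.86 CPM (log2 1.95, both labels), and at night the ratios were 0.34 and 0.13. The two-pore-domain family gene Kcnk12 was at 21.9 against 4.76 CPM (1.99). The A-type current runs through Kcnd channels with Kcnip and Dpp subunits, grouped here after the values were seen. Of 9 such genes measured, 5 were lower in the pooled value and both labels, beside 23% of all measured genes. Among these 5, Dpp6 (-0.06) and Dpp10 (-0.18) were lower by little. The median of the 9 was -0.18, and 0.09 without cells under 3000 detected genes. Kcnd1 was higher in the pooled value and both labels at 15.7 against 2.90 CPM (2.10). The pore gene Kcnd3 was at 11.9 against 50.4 CPM (-1.99), and its auxiliary subunits Kcnip4 and Kcnip1 were at 56.3 against 168 CPM (-1.56) and 37.1 against 74.6 CPM (-0.99). Kcnip4 reads were found in 20.5% of active and 46.9% of silent cells. The leak channel gene Kcnk2 was at 14.9 against 31.2 CPM (-1.02), and 0.47 without the cells with Vip or Avp. Of sodium channel genes, Scn3a was at 97.4 against 63.8 CPM (0.60) and the auxiliary Scn2b at 28.8 against 42.0 CPM (-0.53). Unc80, a subunit of the sodium leak channel NALCN, was at 95.5 against 146 CPM (-0.60). Each had the same sign in both labels, which the ranking of list members required.

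**Figure D4:**
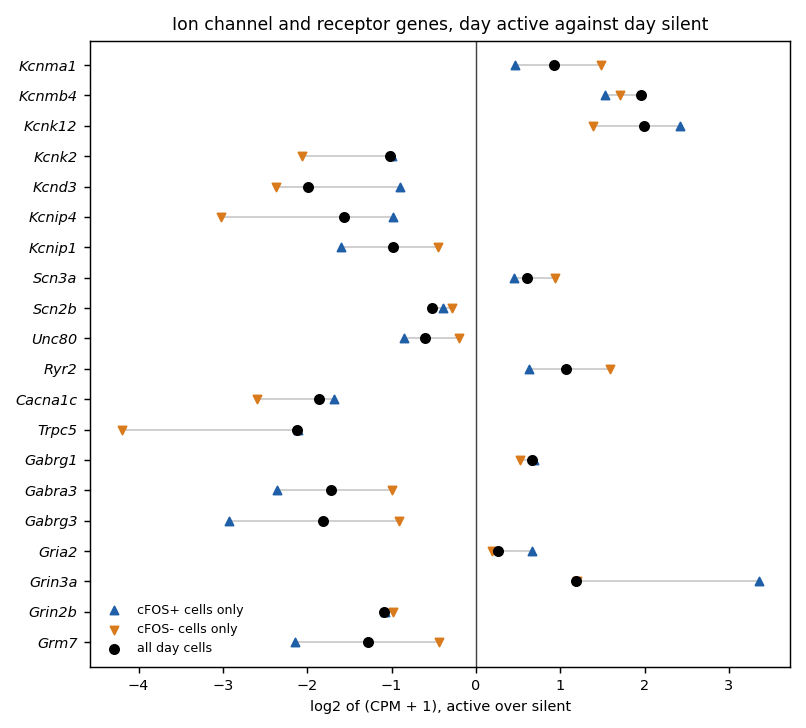
Log2 ratio of active over silent day cells for 20 ion channel and receptor genes, with circles for all cells and triangles for each cFOS label. The BK genes Kcnma1 and Kcnmb4 lie right of 0. Kcnd3, Kcnip4, Kcnip1, Cacna1c, Gabra3, Gabrg3 and Grin2b lie left of 0 with both labels on the same side. Genes ranked highest in their list had to share a sign in both labels, so for them this agreement follows from the choice.

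Most genes of GABA receptors and chloride transport were lower in active cells when pooled. The list holds GABA-A and GABA-B receptors, the scaffold gephyrin, chloride transporters and the kinases that regulate them, and 6 of 25 measured members were higher (24%, beside 50.7% of all genes), with a median of -0.38, and -0.37 and -0.34 within the labels. In 11 alternatives 7 to 12 of the same 25 were higher, with medians from -0.37 to -0.04, so the pooled count was the lowest. Lower in the pooled value and in both labels were 6 members (24%), close to the 23% of all genes. Of the 13 GABA-A subunit genes 3 were higher (median -0.39), and 7 (0.14) without the cells with Vip or Avp. Gabrg3, a gamma subunit (chromosome 7, 56716465 to 57387188), ran from 0 to 797 CPM with a median of 0 in active and from 0 to 1697 CPM with a median of 7.48 in silent cells. A thinned read was found in 28.2% of active (18.6 to 39.5) and 57.1% of silent cells (42.2 to 71.2). Pooled levels were 40.9 CPM (40.3 to 41.4) against 146 CPM (145 to 147), a log2 ratio of -1.81 with -2.93 and -0.91 within the labels. The alpha subunit gene Gabra3 was at 19.0 CPM against 64.9 CPM (-1.72), with reads in 16.7% of active (9.18 to 26.8) and 38.8% of silent cells (25.2 to 53.8). The subunit gene Gabrg1 went the other way at 157.1 against 98.4 CPM (0.67, both labels). The chloride importer gene Slc12a2 had ratios of 1.47 in cFOS+ and -2.74 in cFOS- cells, and the exporter gene Slc12a5 0.60 and -1.01. At night the median of the list was 0.04, with -0.06 for Gabrg3 and 0.58 for Gabra3.

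Of 24 measured glutamate receptor genes 16 were higher in active cells (66.7%, beside 50.7% of all genes), with a median of 0.26, and -0.06 within cFOS+ cells. Higher in the pooled value and both labels were 9 (37.5%), beside 26.3% of all genes. The AMPA receptor gene Gria2, read in 91.0% of active and 87.8% of silent cells, ran from 0 to 1779 CPM with a median of 477.3 and from 0 to 3951 CPM with a median of 305, and was at 557.7 against 466.2 CPM pooled (0.26). The NMDA receptor gene Grin2b was at 41.1 against 89.0 CPM (-1.09), with -1.08 and -0.98 within the labels and medians of 25.1 and 52.0 CPM over cells. Grin3a, another NMDA subunit, was at 31.9 against 13.4 CPM (1.19), and the metabotropic receptor gene Grm7 at 11.7 against 29.9 CPM (-1.28). Of 21 peptide and hormone receptor genes 9 were higher (median -0.44), but 13 in cFOS+ cells (0.29), once each group lost its highest cell (0.19) and among lower cell numbers (0.68). Those with the largest ratios rested on few cells: Npy1r, a neuropeptide Y receptor, had 30.7 against 0.473 CPM (4.43) on reads in 6 active and 3 silent cells, with 57.9% of the active reads in 1 cell. The vasopressin receptor gene Avpr1a had 29.3 against 3.64 CPM (2.71) on 10 active cells and 1 silent cell. The VIP receptor gene Vipr2 stood at 171.95 against 232.9 CPM, with 0.73 in cFOS+ and -0.04 in cFOS- cells.

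Clock genes showed little common difference, with 14 of 26 higher in active cells and a median of 0.02. The repressor Nr1d1 was at 774 against 796 CPM (-0.04), the output factor Dbp at 224 against 277 CPM (-0.30), the activator Arntl at 101 against 92.9 CPM (0.12) and Per2 at 248.1 against 199.6 CPM (0.31). Per3, a relative of Per1 and Per2, was at least 2-fold lower in active cells. It ran from 0 to 708 CPM in active cells with a median of 4.30, and from 0 to 636 CPM in silent cells with a median of 32.5, and the groups overlapped. Pooled levels of Per3 (chromosome 4, 151003652 to 151044665) were 58.2 CPM (57.6 to 58.9) against 127.7 CPM (126.6 to 129.0), a log2 ratio of -1.12, with -0.93 and -1.56 within the labels and 0.40 at night. Without the cells with Vip or Avp it was -0.31. Past 2-fold at low levels, and named after their values were seen, were also Npas2, a relative of Clock, at 22.8 against 4.02 CPM (2.25), and Timeless at 4.54 against 14.6 CPM (-1.50, and -0.14 in cFOS+ cells). The repressor Nfil3 was at 99.996 against 52.0 CPM (0.93) and the retinoid-related receptor gene Rorb at 236.7 against 370.7 CPM (-0.65). Both genes had the same sign in both labels, which the ranking of list members required.

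In the list of cAMP and calcium signalling genes 33 of 58 were higher (median 0.09). The G protein brake Rgs2, itself an activity-induced gene, was at 112.1 against 55.4 CPM, a 2.01-fold difference, and the cAMP phosphodiesterase gene Pde7a at 25.2 against 3.59 CPM (2.51), while the calcium buffer gene Calb1 was at 453.8 against 596.4 CPM (-0.39). Calb1 was read in 53.8% of active and 81.6% of silent cells, with medians of 75.95 and 448.2 CPM. In the secretory list, 20 of 43 were higher (median -0.03). Cadps2, which primes dense-core vesicles, was at 246.6 CPM (245.3 to 247.97) against 73.5 CPM (72.6 to 74.5), a log2 ratio of 1.73 with 0.99 and 2.30 within the labels and 0.54 at night. Its cells had medians of 13.04 and 0 CPM and reached 2034 and 631 CPM. The peptide-cutting enzyme gene Pcsk2 was at 221.7 against 328.96 CPM (-0.57, both labels).

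SCN transcription factor genes were higher for 10 of 21 (median -0.23), with medians of -0.34 in cFOS+ and 0.28 in cFOS- cells and 0.35 without the cells with Vip or Avp. Dlx2, a factor of GABA neurons, was at 48.0 against 21.0 CPM (1.15). Isl1 was at 4.15 against 30.3 CPM (-2.60), with reads in 2.56% of active and 18.4% of silent cells. Six6 was at 31.7 against 70.005 CPM (-1.12). Each had the same sign in both labels, which the ranking of list members required. Of ion pumps and exchangers, 12 of 20 were higher (median 0.06). The potassium-dependent sodium-calcium exchanger gene Slc24a2 was at 33.5 against 8.59 CPM (1.85). Of glycolysis genes 12 of 23 were higher (median 0.12), and the glucose transporter gene Slc2a1 was at 55.3 against 13.9 CPM (1.92, and 1.21 at night). Phosphate genes were higher for 11 of 17 (median 0.10). The importer Slc20a1 was at 171 against 159 CPM (0.10), Slc20a2 at 50.7 against 34.8 CPM (0.53) and the exporter Xpr1 at 67.0 against 112 CPM (-0.73). The Xpr1 ratio was -1.48 in cFOS+ and -0.00 in cFOS- cells, and Xpr1 was read in 46.2% of active and 69.4% of silent cells.

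All 10 measured genes of the mitochondrial genome were higher in active cells (beside 50.7%), with a median of 0.56. The ratio was uneven. The median was 0.90 in cFOS+ and 0.24 in cFOS- cells, and the cells' shares of such reads had near equal medians of 0.463% and 0.459%, with maxima of 10.6% and 2.89%. The median ratio was 0.26 once each group lost its highest cell, 0.26 without the cells with Vip or Avp, 0.14 among higher cell numbers and 0.03 at night, when 5 of the 10 were higher. The cytochrome oxidase gene mt-Co1 was at 1834 against 1252 CPM pooled (0.55), but had medians of 892 and 905 CPM over cells, and 26.2% of its active reads came from 1 cell. Without the microglia marker cells, 5 of the 10 were higher, the median was 0.09 and mt-Co1 was at 1031 against 1145 CPM. The nuclear genes of the respiratory chain had 32 of 52 higher and a median of 0.07.

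The microglia, astrocyte and oligodendrocyte marker lists changed direction with the cells used. Microglia markers were higher in active cells for 13 of 16 (median 0.44), beside 50.7% of all measured genes. A smaller share of active cells (41.0% against 51.0%) nonetheless reached 100 CPM of their sum. The median of the list was -0.47 in cFOS+ and 0.97 in cFOS- cells. Astrocyte markers were higher for 10 of 14 (median 0.60), with 2.44 in cFOS+ and -0.34 in cFOS- cells, and their sums had medians of 62.3 CPM in active and 63.5 CPM in silent cells. Oligodendrocyte markers were higher for 5 of 7 measured by day and for 0 at night, and none of 3 endothelial genes was higher by day. The night medians were -0.13 for microglia, -0.20 for astrocyte and -1.12 for oligodendrocyte markers. Neuron markers were higher for 6 of 16 (median -0.13) and Gad1, the GABA-synthesizing enzyme, was at 1567 against 1190 CPM (0.40). The part of other cells' RNA in the ratios above was not tested beyond the values without microglia marker cells.

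The genes named by rank had at least 20 CPM in one group and the same direction in 9 measures (pooled, each label, mean over cells, without the top cell, without microglia marker cells, lower and higher cell numbers, and share of cells). Of 7254 candidates 1690 (23.3%) met this, 757 of them higher and 933 lower. As the rule used this contrast, their values are a description. The 12 highest in active cells had log2 ratios from 2.85 to 5.61. Nov, a secreted matrix protein, ran from 0 to 745 CPM in active and from 0 to 7.08 CPM in silent cells, with reads in 24.4% (15.3 to 35.4) and 4.08% (0.498 to 14.0) of cells. Its pooled levels were 53.5 CPM (52.9 to 54.2) and 0.12 CPM (0.086 to 0.162), a log2 ratio of 5.61. Lin7a, a synaptic scaffold, was at 72.4 against 3.09 CPM (4.16), with reads in 38.5% of active and 8.16% of silent cells. Mpp6, a scaffold of the MAGUK family, was at 51.0 against 6.22 CPM (2.85). Also at synapses, Nptx1, a pentraxin that gathers AMPA receptors, was at 43.2 against 3.08 CPM (3.44), and Igsf9b, an adhesion molecule of inhibitory synapses, at 47.7 against 2.78 CPM (3.69). The others given here were Klf4, described above, the deadenylase Pan2 (4.04), the augmin subunit Haus8 (4.11), the kinase Map3k10 (3.25), Arhgap23 (2.91) and the endosomal protein Dnajc13 (3.11).

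The 12 genes lowest in active cells had log2 ratios from -4.42 to -2.69. For each of them 1 cell held between 21.7% (Ppp6r2) and 54.1% (Tti1) of the silent reads. The same cell held the most for Adipor2, Nsun4 and Lrrc57, and another cell for Fhl2 and Zc3h8. For the 12 highest in active cells, 1 cell held between 15.2% (Haus8) and 34.7% (Mpp6) of the active reads. Fhl2, a LIM domain cofactor, ran from 0 to 63.9 CPM in active and from 0 to 447.2 CPM in silent cells and was at 0.91 CPM (0.83 to 0.995) against 39.8 CPM (39.1 to 40.5), a log2 ratio of -4.42. Reads of it were found in 5.13% of active and 24.5% of silent cells. The adiponectin receptor gene Adipor2 was at 7.34 against 77.4 CPM (-3.23), and Il13ra1, an interleukin receptor subunit, at 3.03 against 32.2 CPM (-3.04). Susd2 was at 5.53 against 77.9 CPM (-3.59). The rest were Zc3h8 (-3.19), Tti1 (-3.08), Wdfy2 (-3.03), Lrrc57 (-2.98), the mitochondrial RNA methyltransferase Nsun4 (-2.79), Mob3a (-2.74), the phosphatase subunit Ppp6r2 (-2.71) and the chromatin remodeller subunit Ino80d (-2.69). Without the cells with Vip or Avp, a setting the rule did not use, Nsun4 was at -0.42, Adipor2 at -0.93, Mob3a at -1.02 and the others of the 12 between -1.71 and -4.67. In that setting Nov was at 2.45, and the 12 highest in active cells lay between 2.26 and 5.28.

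Night cells, which took no part in choosing these genes, gave the same sign for 14 of the 24, 7 of each 12, beside 50.5% of all measured genes. Across genes the day and night ratios had a Pearson correlation of -0.00. Nov had a night ratio of 0.10, Lin7a -0.33, Klf4 0.35 and Fhl2 3.22.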

How the data were processed

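The deposited files hold raw counts, made by the authors, of 22800 gene symbols in 298 cells, and a table of normalized signal that equals the counts divided by 1 factor per cell (relative tolerance 1e-06 in all 298 columns). The deposited log values were not used. Per the submitters' processing notes, GRCm38.p4, STAR and DESeq2 were used, without versions or roles. For the annotation, the counter and the use of strand the sources used here give nothing, and overlapping genes or close paralogs may share reads. No molecular identifiers are mentioned, so counts are reads.

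Groups were taken from the sample titles. The counts of a group's cells were added up, scaled to CPM and compared as log2 of (CPM + 1), with python 3.11.15, numpy 2.4.6, scipy 1.17.1 and pandas 2.3.3, after a check on simulated data. Each group was 1 sample, so nothing was tested. No cell was filtered, and no doublet caller was run, since each library came from 1 pipette. Shares of cells used cells thinned to 3000000 reads, which every cell reached. Gene positions came from GENCODE M21 (GRCm38) and promoters from RefSeq.

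List members counted as measured from 5 CPM in either group. Named genes reached 20 CPM in either group, had a thinned read in 20% or more of the cells of the group where they were higher, and kept 1 direction in 9 measures. They were ranked by the smallest of 5 ratios (pooled, each label, mean of cells, and top cells left out), and 12 per side were taken, without predicted, ribosomal protein and mitochondrially encoded genes. Fos, Vip, Avp, Sst, Slc20a1, Slc20a2 and Xpr1 were always given, and lists were illustrated by the members ranked highest in the same way and by genes with a known role in firing. A few genes that these rules name are not reported here. Groups, lists and this rule were chosen with earlier results of these data known. Which lists received most room was chosen after the values were seen. The number in a cell's name, whose meaning the labels do not give, was split at its median of 388 as a possible batch, leaving 37 active and 27 silent cells with lower numbers and 41 and 22 with higher numbers. In all, 14 alternatives were planned, and leaving out cells under 3000 detected genes and peptide class limits of 10 and 1000 CPM were added after seeing the data. The highest correlation of log2 (CPM + 1) between any 2 day cells was 0.696, so no day cell was taken as a repeat of another.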

Additional observations from a re-analysis of the deposited data

How the results depend on the processing

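Counts of genes at least 2-fold apart depended on the setting. Against 1664 higher in active cells, there were 683 with a pseudocount of 10 CPM, 872 with a minimum of 20 CPM, 2600 in cFOS+ cells and 2766 among higher cell numbers. Against 1529 lower, there were 991 without the top cell of each group, 650 with a pseudocount of 10 CPM, 889 with a minimum of 20 CPM and 2583 in cFOS- cells. The 33 immediate early genes and 14 clock genes higher in active cells gave counts within 1.5 times under every alternative. Genes of GABA receptors and chloride transport higher in active cells numbered 6, but 10 without the top cells, in cFOS+ and in cFOS- cells, 11 without cells with Vip or Avp and 12 among higher cell numbers. Peptide genes numbered 11, but 6 without microglia marker cells and 7 among higher cell numbers. Mitochondrially encoded genes numbered 10, but 3 of the 8 that then reached 5 CPM without microglia marker cells. Neuron markers numbered 6, but 3 without cells with Vip or Avp. Microglia markers numbered 13, but 7 in cFOS+ cells, 3 without cells with Vip or Avp and 0 without microglia marker cells, as that setting's construction implies. Many genes followed singly were chosen for keeping 1 direction in several of these settings, which by itself lowers the count of turned signs. Of 61 such genes that were at least 2-fold apart, the sign turned in some alternative for 5: for Gadd45b (-0.041), Kcnk2 (0.47) and Timeless (3.06) without cells with Vip or Avp, for Homer1 (-0.52) in cFOS+ cells, and for Npas2 (-0.22) among lower cell numbers. Of 34 less than 2-fold apart it turned for 18, among them Fos (from 0.12 to -0.14 among lower cell numbers), Junb, Per2, Dbp, Arntl, Gad1, Unc80 and Slc20a1. The cause of these differences was not tested. Leaving out replicates was not possible, as each group is 1 sample. No paired analysis was possible because the labels name no animal or slice that cells of the groups share. With 17 to 51 cells per firing and cFOS label, and many genes read in a minority of cells, a single cell could set a ratio.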

Other observations

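Ribosomal protein genes, described after their values were seen, were higher in active cells for 61 of 81 measured members (75.3%, beside 50.7% of all genes). Their median log2 ratio was 0.19 (0.13 in cFOS+ and 0.12 in cFOS- cells). Higher in the pooled value and both labels were 30 (37.0%), beside 26.3% of all genes. Over 11 alternatives 24 to 65 were higher, with medians from -0.22 to 0.27. The lowest of both, 24 genes and -0.22, came without cells with Vip or Avp, and at night the median was -0.07. Stress genes were even: 12 of 23 heat shock and unfolded protein response genes were higher in active cells, with a median of 0.02.

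Class limits of 10 and 1000 CPM, added after seeing the data, gave the same order for the peptide cells. Vip was found in 21 and 18 of 78 active cells and in 3 and 2 of 49 silent cells at these limits. Avp was found in 25 and 15 active and in 25 and 19 silent cells. Sst was found in 10 and 6 active cells, and in 4 and 0 silent cells, where 0 of 49 allows a share of up to 7.25% by the exact interval.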
